A study of Mus musculus with 2 samples.

Results

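The clustered replication histone genes are the genes whose symbols begin with Hist1h, Hist2h, Hist3h or Hist4h, and 67 of the 32285 genes in the deposited tables carry such a symbol. They comprise 6 H1, 18 H2a, 18 H2b, 12 H3 and 13 H4 genes. The annotation places 54 of them on chromosome 13, 10 on chromosome 3, 2 on chromosome 11 and 1 on chromosome 6. They were measured in tumours of RM-1, a mouse prostate cancer cell line labelled WT, grafted under the skin of C57BL/6 mice and collected at day 10 of treatment. The tumours of the first group received vehicle and those of the other RP-6306, a small molecule that inhibits PKMYT1, a kinase that restrains entry into mitosis. CD45+ leukocytes of the host were sorted and pooled with tumour cells in 3 to 1 parts before droplet sequencing with the SeekOne DD kit. Each group is 1 library, RM-1 is a single line, and only a pair of mice is named for the whole study, so differences between the libraries have no replicate check and no test was made. The ages of the mice are not given in the sources used here.

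Replication histone genes supply the H1 linker histones and the H2A, H2B, H3 and H4 core histones that package newly copied DNA, and their mRNAs accumulate while DNA is being replicated. Most animal mRNAs end in a poly(A) tail. The typical mRNA of these genes ends just after a short stem-loop that is bound by SLBP, and it has no such tail. A subset, which includes Hist1h1c and Hist1h2bc, is known to give polyadenylated mRNA in differentiated tissues. The labels name a 3' protocol, a kind of library that primes on poly(A), so the levels below are of captured mRNA ends and not of all histone mRNA. How much of each gene's mRNA went uncaptured was not tested. Each unique molecular identifier (UMI) counts 1 captured end, so levels are given as counts per 1e6 UMIs (CPM) and were not divided by length.

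The stem-loop is shown first because it marks where the typical tail-less mRNA ends. A 16-base stem-loop, with a stem of 6 pairs that starts in G and G, a loop that starts in T and T, and G with T allowed as a pair, was searched on the transcript strand of the GENCODE M21 transcripts for GRCm38, the assembly of mm10. It was found in 44 of the 67 members and in 0.587% of 58725 other protein-coding transcripts, of which the last 1500 bases were searched. There were 6 distinct stem-loops among the members, and 1 gene stands for each in the lines that follow, with the stem-loop in capitals and 5 bases on either side.
Hist1h1e: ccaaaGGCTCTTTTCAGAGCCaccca
Hist1h4d: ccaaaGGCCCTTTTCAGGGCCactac
Hist1h3c: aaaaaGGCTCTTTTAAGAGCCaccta
Hist1h4b: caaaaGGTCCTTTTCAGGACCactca
Hist1h4i: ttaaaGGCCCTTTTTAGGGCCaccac
Hist2h2ac: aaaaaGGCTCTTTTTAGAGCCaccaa
The stem-loop of Hist1h1e was the most common, with 26 members. That of Hist1h4d was in 7 members, that of Hist1h3c in 6, those of Hist1h4b and Hist1h4i in 2 each and that of Hist2h2ac in 1. In 25 members the stem-loop lay more than 50 bases before the annotated transcript end, so that the annotated transcript runs past it. These 25 genes held 62.2% of all histone UMIs of the vehicle tumour-like cells and 63.1% of those of the RP-6306 tumour-like cells. The 19 members whose stem-loop lay within 50 bases of the annotated end held 5.97% and 6.08%, and the 23 members with no match held 31.9% and 30.8%. Distances were 1153 bases in Hist1h1e, 840 in Hist1h1c and 330 in Hist1h4i, against 74 in Hist1h3c, 57 in Hist2h2ac and 28 in Hist1h4b. The annotated transcripts of Hist1h1b, Hist1h1a and Hist1h2bc held no match. A stem-loop past the annotated end could not be found, so no match does not mean that the gene lacks one. Several members with no match have short annotated transcripts, such as Hist1h3i (411 bases), Hist1h2ai (393) and Hist1h4k (312). AATAAA, the usual poly(A) signal, stood in the last 50 bases of 14 members, which held 13.6% and 12.1% of the histone UMIs. Across the 67 genes of a single table the highest A content in 20 bases ran only weakly with the vehicle level (Spearman's rho = 0.28), as a description over genes that share a library.

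Members resemble each other closely, and 59 of the 67 shared a stretch of at least 60 bases with another member. The 59 held 76.4% of the vehicle and 75.2% of the RP-6306 histone UMIs of tumour-like cells, so single values within such families are uncertain where the counting could split them. Hist1h1a, Hist1h1b, Hist1h1t, Hist1h2aa, Hist2h2bb, Hist2h2be, Hist3h2ba and Hist4h4 shared no such stretch. Hist1h1e, on chromosome 13 from 23620629 to 23622558, overlaps the annotated bounds of Hist1h2be on the same strand.

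Cells were named by clustering without any histone member among the variable genes. Tumour-like cells numbered 3203 in the vehicle and 3489 in the RP-6306 library, with medians of 26269 and 30818 UMIs, and detected 13 of the 14 tumour markers, which summed to 2231 and 2352 CPM. In the same cells the 12 macrophage and monocyte markers summed to 29.7 and 27.4 CPM, the 8 T markers to 16.05 and 14.5 and the 8 B markers to 17.8 and 15.5. The 9 NK markers summed to 129.1 and 83.4 CPM, the 8 dendritic markers to 109.0 and 127.4, the 7 fibroblast markers to 229.5 and 259.7 and the 6 endothelial markers to 102.5 and 65.4, and the part of such cells in the histone values was not tested. The libraries share 374 cell barcodes of 17313 and 15909.

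Summed over all 67 genes, histone UMIs were 1415 CPM in vehicle tumour-like cells (95% counting interval 1407 to 1423) and 2077 CPM in RP-6306 tumour-like cells (2069 to 2086). The log2 ratio of RP-6306 over vehicle was 0.55 (interval 0.54 to 0.56), and it was 0.59 for H1, 0.66 for H2a, -0.22 for H2b, 0.63 for H3 and 0.43 for H4. All intervals cover counting error only. The H1 genes held most of the signal in both libraries, at 59.3% and 60.7% of histone UMIs. H1 stood at 839.6 and 1260 CPM, H2a at 304.7 and 480.8, H3 at 88.2 and 137, and H4 at 85.7 and 116. The H2b sum was the exception, at 96.9 CPM in the vehicle and 83.2 in the RP-6306 library, although 12 of the 16 H2b genes measured were above 0 in log2 ratio. Of the 3 clusters of tumour-like cells it was lower in 1 (-0.67, cluster 13) and higher in the others (0.15 in cluster 10 and 0.11 in cluster 14). Of the 64 members with at least 20 UMIs, 52 were higher and 12 lower in the RP-6306 library, with a median log2 ratio of 0.35, against 0.016 over all 17581 genes measured. A gene was taken as past the 1.5-fold mark when its CPM + 1 differed by at least 1.5-fold and the counting interval of its ratio, computed without the added 1, left out equality. On this mark 18 members were higher and 1 was lower. Over all genes measured, 1.20% were higher and 1.46% lower. The added 1 CPM sets this count: with 10 CPM added 4 members were higher and the median was 0.096, and with 0.1 CPM added 28 were higher and 3 lower. Those on the higher side were 3 H1, 7 H2a, 2 H2b, 3 H3 and 3 H4 genes.

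Among the linker histones, Hist1h1e was the most abundant member, with 358.7 CPM in the vehicle and 536.2 in the RP-6306 library (log2 ratio 0.58, interval 0.56 to 0.60), just under the mark. Hist1h1b followed with 325.7 and 503.2 CPM (0.63, 0.61 to 0.65). Hist1h1d stood at 66.9 and 111.3 CPM and Hist1h1c at 88.0 and 108.2 CPM, so their order differed between the libraries. Hist1h1a was nearly absent, with 8 UMIs in the vehicle and 103 in the RP-6306 library (0.09 and 0.91 CPM, ratio interval 2.28 to 4.57 on the log2 scale). Its RP-6306 UMIs came from 24 of 3489 cells, and 3 of these held 67 of the 103. Without the cell with most of them it was at 0.59 CPM and no longer past the mark (log2 ratio 0.55). In those 24 cells the macrophage and monocyte markers summed to 84.1 CPM, against 27.4 in all RP-6306 tumour-like cells, and the keratins Krt7, Krt8, Krt18 and Krt19 to 731.7 against 1077 CPM; the part of macrophage RNA in them was not tested. Hist1h1t, the testis linker histone, had 13 and 34 UMIs.

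Among the H2a genes, Hist2h2ac led with 100.1 CPM in the vehicle and 185.3 in the RP-6306 library (log2 ratio 0.88, interval 0.85 to 0.92). On the CPM + 1 scale this was the highest ratio of the members measured, a scale that understates low genes such as Hist1h1a. Hist1h2ae stood at 90.3 and 123.8 CPM and Hist1h2ab at 38.3 and 60.1. Hist1h2an, Hist1h2ai, Hist1h2ak and Hist1h2ag were also past the mark on the higher side, at 22.7 and 36.9, 10.4 and 17.0, 4.89 and 9.07, and 2.15 and 4.03 CPM. Hist1h2ac was level, with 7.08 CPM in the vehicle and 6.97 in the RP-6306 library. Hist1h2ap stood at 20.3 and 25.5 CPM and Hist2h2ab at 2.38 and 4.03. The testis gene Hist1h2aa had 9 and 2 UMIs and was not measured.

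Most H2b genes were higher in the RP-6306 library, and the lower H2b sum came from Hist1h2bc. Of the 16 measured, 12 were above 0 and 4 below, with a median log2 ratio of 0.27. Hist1h2bc, at 60.4 CPM in the vehicle and 33.1 in the RP-6306 library, was the 1 member past the mark on the lower side (log2 ratio -0.85, interval -0.93 to -0.81). It made up 5269 of the 8456 H2b UMIs in the vehicle library and 3728 of the 9385 in the RP-6306 library. The H2b sum without Hist1h2bc was higher in the RP-6306 library. Hist1h2bj, at 4.73 and 7.81 CPM, and Hist1h2bm, at 3.77 and 7.62, were past the mark on the higher side. Hist1h2be stood at 5.92 and 7.82 CPM, Hist1h2bn at 3.51 and 4.41, Hist1h2bg at 6.38 and 5.97, and Hist2h2be at 4.23 and 3.87. The testis gene Hist1h2ba had no UMI in 3203 vehicle cells and 2 in the RP-6306 cells.

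Of the H3 genes, Hist1h3c held most UMIs, with 63.4 CPM in the vehicle and 100.04 in the RP-6306 library (log2 ratio 0.65, interval 0.61 to 0.70). Hist1h3i was past the mark too, at 6.74 and 11.8 CPM, while Hist1h3e stood at 5.29 and 8.31 and Hist1h3b at 3.06 and 4.19. The H4 genes encode the same core histone, yet their captured ends differed. Hist1h4i led in both libraries and was level, at 42.7 and 43.03 CPM (0.01, interval -0.05 to 0.07), whereas Hist1h4d stood at 20.9 and 38.6 (0.85, 0.80 to 0.96). Hist1h4c was at 6.35 and 10.7 CPM, Hist4h4 at 3.83 and 5.27, and Hist1h4h at 3.67 and 5.12. The remaining members had at most 3.80 CPM in either library, and of them Hist2h4 (1.79 and 3.80 CPM), Hist1h2af (1.79 and 3.66) and Hist1h3f (1.68 and 3.46) were past the mark on the higher side.

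**Figure D1:**
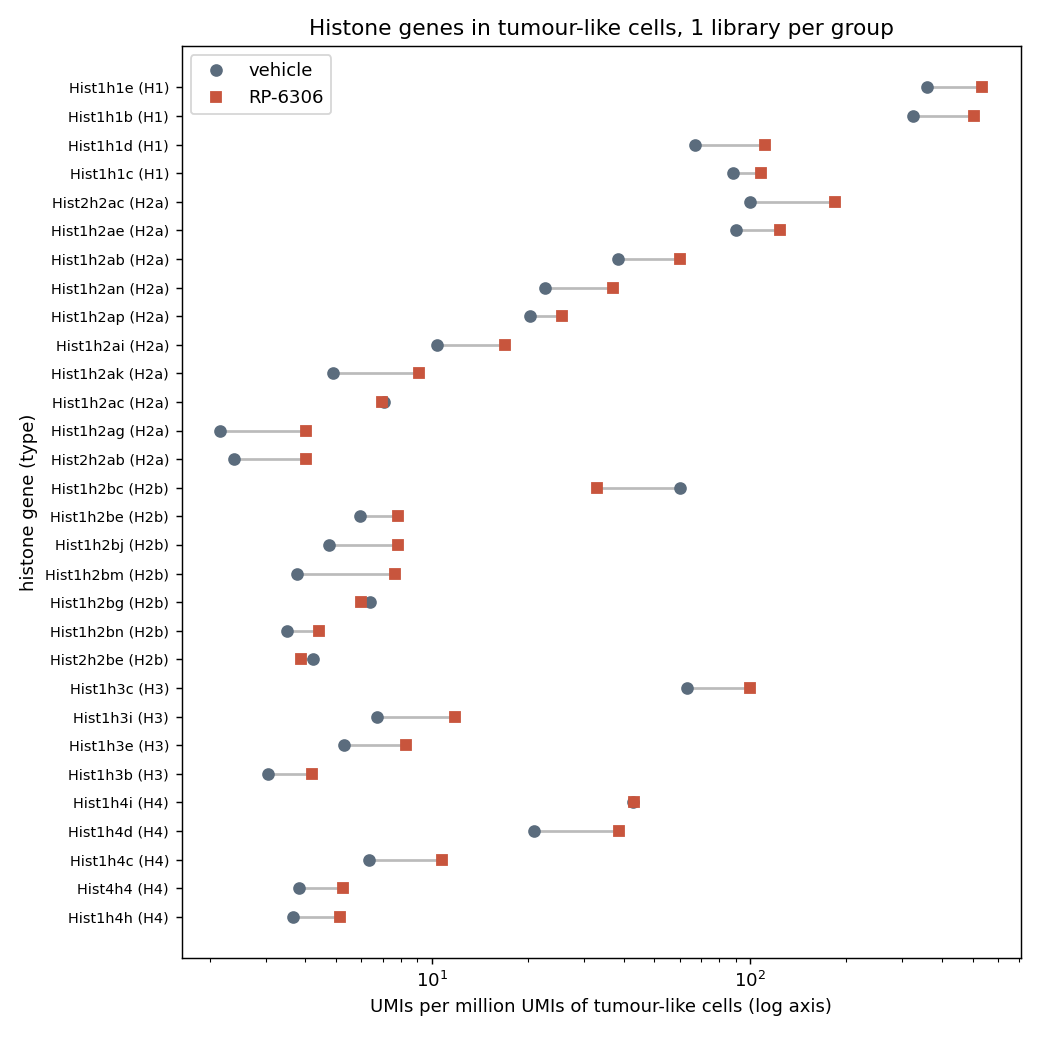
CPM (log axis) of the 30 members with most RP-6306 UMIs in tumour-like cells, ordered by type, with a circle for the vehicle and a square for the RP-6306 library. Most squares lie to the right, Hist1h2bc lies to the left (60.4 and 33.1 CPM), and the points of Hist1h4i coincide.

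Histone levels were next set against the cell cycle. Each tumour-like cell was thinned to 2000 UMIs and scored with 43 S phase and 54 G2/M genes, none of them a member, and 9 vehicle and 28 RP-6306 cells with fewer UMIs were left out. In the usual call by the higher score, vehicle cells had 359 CPM in G1, 2068 in S and 2882 in G2/M, and RP-6306 cells had 314.5, 2570 and 3285. The difference in S depended on the UMIs scored. With phase called on all UMIs, S phase cells had 2692 CPM in the vehicle and 2606 in the RP-6306 library (log2 ratio -0.047, interval -0.068 to -0.025), against 0.31 at 2000 UMIs. Because many cells pass both scores, cells were further divided by which scores were above 0. Cells with neither score above 0 were 57.4% of vehicle cells (exact interval 55.7 to 59.1) and 41.3% of RP-6306 cells (39.6 to 42.9). Cells with the S score alone were 11.4% and 12.9%, those with both 24.0% and 35.9%, and those with the G2/M score alone 7.23% and 9.85%. Some 26.5% of vehicle and 27.5% of RP-6306 cells lay within 0.05 of a threshold.

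The cells with both scores held the histone signal. In the vehicle library the sum was 359 CPM with neither score, 598.7 with the S score alone, 3456 with both and 1852 with the G2/M score alone. In the RP-6306 library it was 314.5, 834.8, 3902 and 2173 CPM. The order of the 4 states was thus alike in the libraries. For the states with the G2/M score, the distance from cells with neither score far exceeded that between the libraries. With the S score alone, the vehicle distance from cells with neither was about that between the libraries. Of the 57 members measured in the vehicle library, 48 were past the 1.5-fold mark on the higher side in cells with both scores over cells with neither, and 2, Hist1h2bc and Hist2h3c1, were lower, with a median log2 ratio of 1.37. The share over all genes was 7.36% higher and 6.70% lower. In the RP-6306 library 53 of 61 were higher and 1, Hist1h2bc, was lower, with a median of 1.77, against 7.77% and 8.77% of all genes. The S score alone went with fewer such members: 12 of 45 were higher and 1 was lower in the vehicle library (4.11% and 1.19% of all genes), and 26 of 49 and 1 in the RP-6306 library (5.03% and 3.11%). With the G2/M score alone 36 of 47 were higher and 1 was lower in the vehicle library (6.37% and 7.09%), and 42 of 50 and none in the RP-6306 library (6.27% and 7.94%).

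The members did not follow the cycle equally. Hist1h1b went from 16.5 to 924.4 CPM between cells with neither and with both scores in the vehicle library and from 18.0 to 1007 in the RP-6306 library, a log2 ratio of 5.73 in each. Hist1h3c went from 2.88 to 177.7 and from 2.36 to 199.5 CPM, ratios of 5.53 and 5.90. Hist1h1e went from 62.7 to 928.9 and from 73.3 to 1017 CPM, so it stood beside Hist1h1b in cycling cells and well above it elsewhere. Hist1h1c differed least among the abundant H1 genes, from 63.9 to 138.7 and from 56.2 to 164.6 CPM, and led the members with Hist1h1e and Hist1h2bc in cells with neither score. Hist1h4i went from 31.5 to 64.5 and from 25.8 to 59.6 CPM.

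Hist1h2bc ran the other way. In the vehicle library it had 79.7 CPM with neither score, 48.3 with the S score alone, 32.6 with both and 57.3 with the G2/M score alone. In the RP-6306 library the values were 44.7, 23.6, 22.5 and 48.1 CPM. It was therefore lower in the RP-6306 library in each of the 4 states, with log2 ratios of -0.82 with neither score, -0.52 with both and -0.25 with the G2/M score alone. The H2b sum varied less over the states than the sums of the other types, at 100.1, 71.1, 99.5 and 105.7 CPM in the vehicle library and 63.1, 52.7, 105.05 and 100.2 in the RP-6306 library. In the vehicle library it was highest with the G2/M score alone, and in the RP-6306 library with both scores, close to the G2/M score alone. The other types were highest with both scores in each library, at 2172 and 2411 CPM for H1, 799.5 and 932.0 for H2a, 227.6 and 264.0 for H3, and 157.04 and 190.1 for H4.

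**Figure D2:**
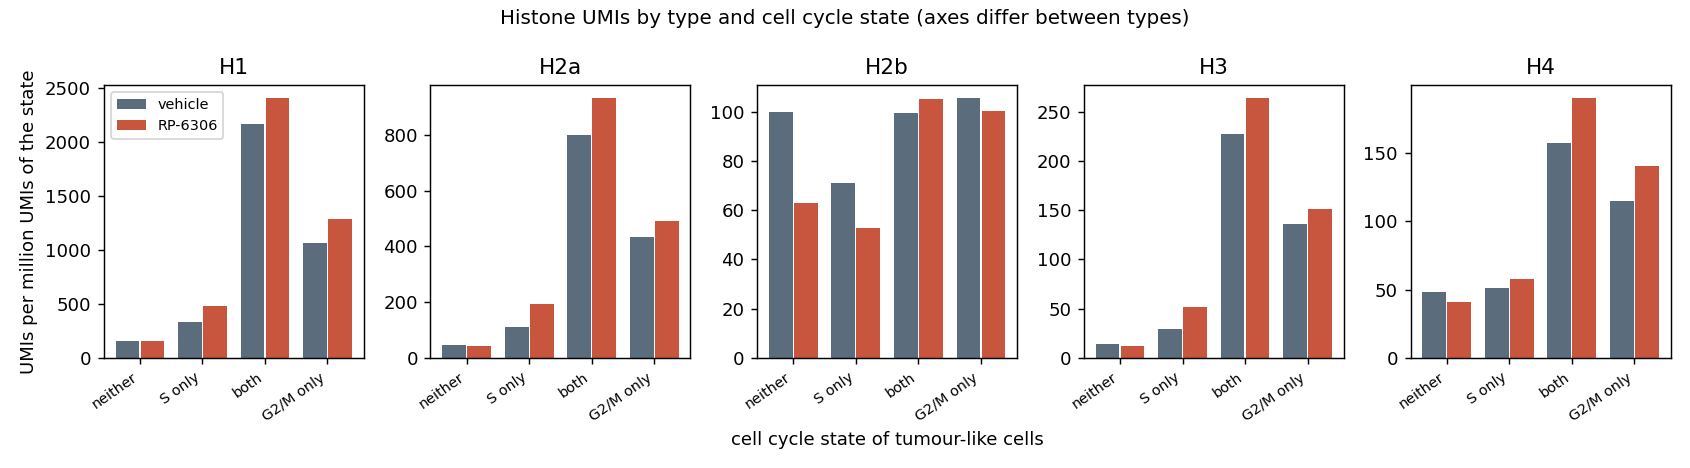
CPM of each histone type (summed UMIs over all UMIs of the state) in the 4 cell cycle states of tumour-like cells, with paired bars for the vehicle and RP-6306 libraries; vertical axes start at 0 and differ between types. H1, H2a, H3 and H4 peak in cells with both scores, and H2b varies less, from 71.1 to 105.7 CPM in the vehicle and from 52.7 to 105.05 in the RP-6306 library. The H2b sum includes Hist1h2bc, which ran the other way.

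**Figure D3:**
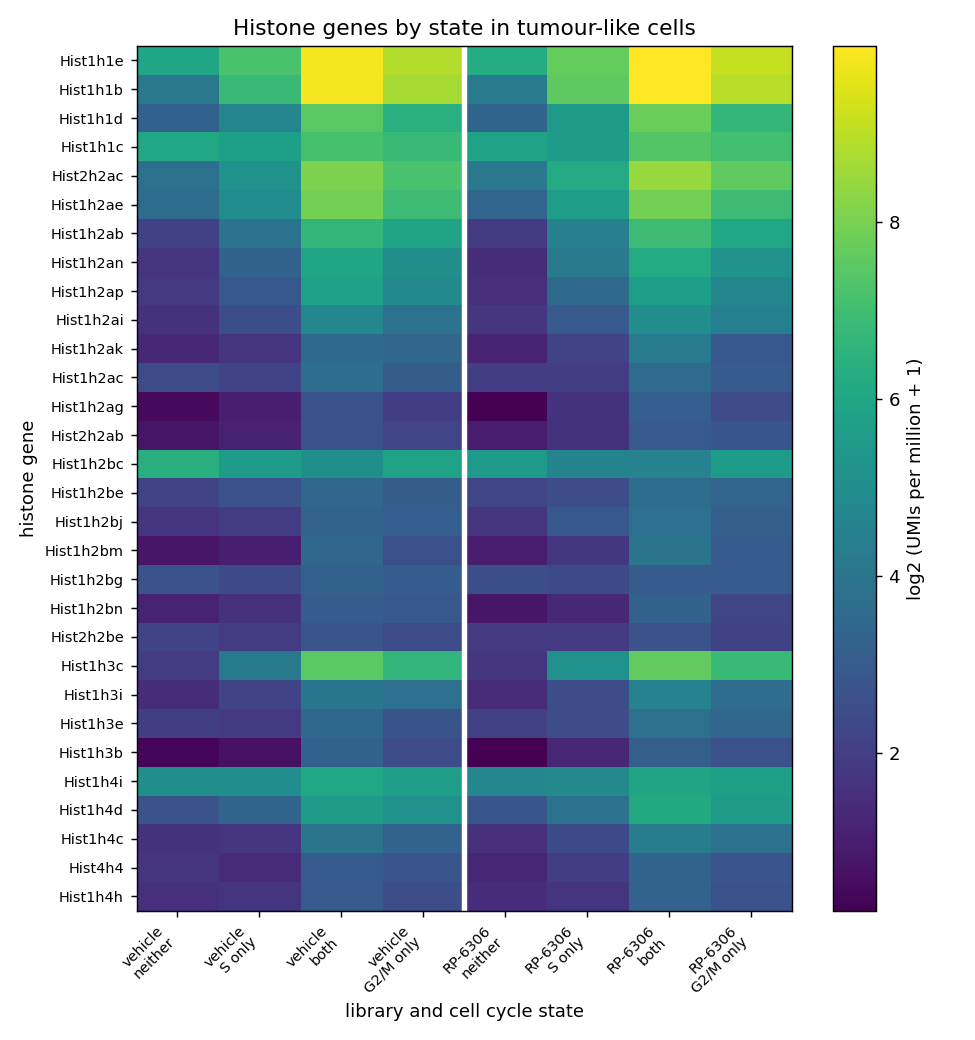
Colour gives log2(CPM + 1) of the 30 members of the plot of tumour-like levels, in rows, for the 4 states of each library, in columns. Hist1h1b and Hist1h1e are brightest with both scores, and Hist1h2bc is brightest with neither in the vehicle library.

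Single cells spread widely around these sums. The 10% of tumour-like cells with the most histone UMIs held 61.8% of them in the vehicle and 57.4% in the RP-6306 library. The median cell stood at 389.9 and 413.0 CPM, close together, whereas the 90th percentile stood at 4030 and 6461. Among cells with the S score alone the median was 330.9 CPM in the vehicle and 301.7 in the RP-6306 library, and the 95th percentile was 1085 and 3816, so the higher RP-6306 sum in that state came from its upper cells. Cells with both scores had medians of 2725 and 3351 CPM.

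**Figure D4:**
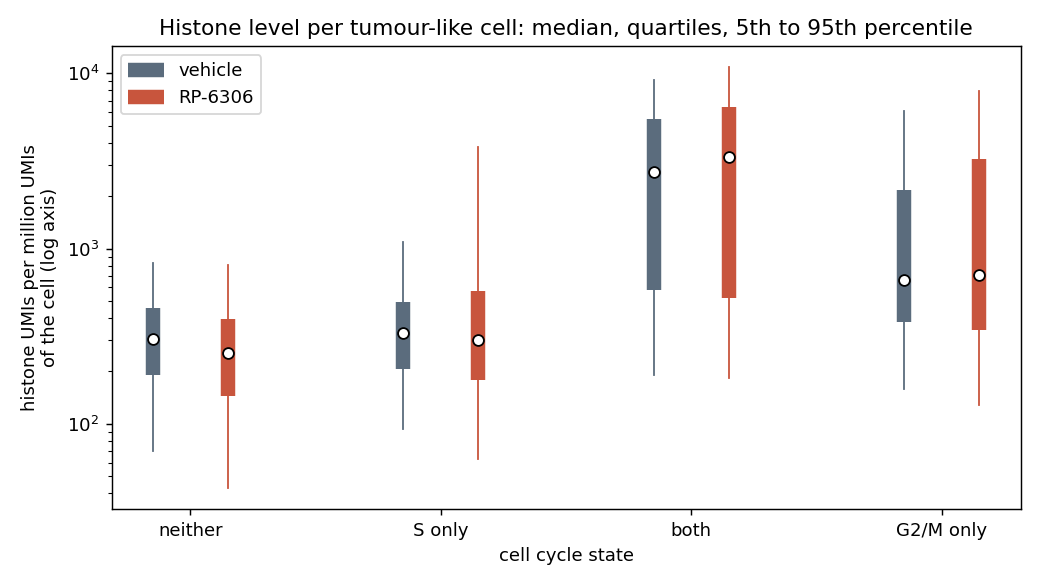
Histone CPM of each tumour-like cell (log axis) by state and library; the white point is the median, the thick bar runs between the quartiles and the thin line from the 5th to the 95th percentile. The median is 306.2 CPM with neither and 2725 with both scores in the vehicle library, and 253.3 and 3351 in the RP-6306 library.

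State by state, the summed levels of the libraries lay closer together than over all tumour-like cells, least so with the S score alone. The log2 ratio of RP-6306 over vehicle for the sum was -0.19 (interval -0.23 to -0.16) with neither score, 0.48 (0.44 to 0.52) with the S score alone, 0.18 with both and 0.23 with the G2/M score alone. With neither score none of 50 members was past the mark on the higher side and 1, Hist1h2bc, was lower, where 1.53% and 1.13% of all genes were. With the S score alone 14 of 42 were higher and 1 lower, against 2.45% and 3.51% of all genes. That 1 was again Hist1h2bc, and the 14 include Hist1h1b, Hist1h1d, Hist2h2ac, Hist1h2ae and Hist1h3c. In that state the median log2 ratio of members was 0.49, above the 0.35 of all tumour-like cells, and H2a stood at 112.0 and 192.1 and H3 at 29.7 and 51.2 CPM. Without the 1 cell that held most UMIs of the member, 5 of these 15, Hist1h2ap, Hist1h2bm, Hist1h3a, Hist1h3e and Hist4h4, were no longer past the mark. With both scores 5 of 60 were higher and none lower, against 0.904% and 2.19%. These were Hist1h1a, Hist1h2ak, Hist1h3f, Hist1h4f and Hist2h4. With the G2/M score alone Hist1h2bk, Hist1h3e, Hist1h3f, Hist1h4a and Hist2h4, 5 of 46, were higher and Hist1h2bn was lower, against 2.45% and 3.01%, and without their top cell Hist1h4a and Hist1h2bn were no longer past the mark. The S list itself stood at 3075 CPM in vehicle and 3901 in RP-6306 cells with the S score alone, so these cells also differed in the genes that set their state, and its part in the histone values was not tested. RP-6306 levels weighted by the vehicle library's share of UMIs in each state gave 1576 CPM, a log2 ratio of 0.16 over the vehicle. Vehicle levels weighted by the RP-6306 shares gave 1840 CPM, a ratio of 0.38.

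The tumour-like cells fell into 3 clusters that differed in the same way. Cluster 13, led by Hspb1 and Cryab, held 82.3% of its vehicle and 76.4% of its RP-6306 cells with neither score, and its histone sum was 402.6 and 340.3 CPM. Cluster 14, led by Top2a and Ube2c, had 3293 and 3929 CPM with 1.06% and 0.54% of cells with neither score. Cluster 10, led by Gm44206 and Rrm2, stood at 1534 and 2425 CPM. It held 494 vehicle and 967 RP-6306 cells, of which 31.6% and 53.3% had both scores. Hist1h2bc was lower in the RP-6306 library in each cluster, at 39.4 and 23.3 CPM in cluster 10, 78.9 and 42.7 in cluster 13, and 34.5 and 28.5 in cluster 14. In cluster 10, 33 of 55 members were past the mark on the higher side and 1 was lower, against 3.36% and 7.48% of all genes. In cluster 13, none of 54 was higher and 2, Hist1h2ad and Hist1h2bc, were lower, against 1.52% and 1.34%, and in cluster 14, Hist1h3f and Hist2h4, 2 of 58, were higher and none lower, against 0.711% and 2.07%.

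Genes that act on histones or replace them were followed in the same cells. Of 11 replacement histone genes, which are polyadenylated and made outside S phase as well, all were above 0 in log2 ratio with a median of 0.27, and 1, Cenpa, the centromeric H3, was past the mark (70.7 and 108.9 CPM). Over all 17581 genes measured in these cells, 9421 were above 0, the median was 0.016 and 1.20% were past the mark on the higher side. H2afz stood at 485.0 and 706.7 CPM (log2 ratio 0.54), H2afx at 47.3 and 70.5 (0.57), H2afj at 84.8 and 115.7 (0.44), H1fx at 13.2 and 16.5 (0.31), and H2afy at 98.2 and 118.5 (0.27). H3f3b, a replacement H3 gene, was level at 1162 and 1187 CPM (0.03). Cenpa is also in the G2/M list.

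Of 18 factors of histone mRNA transcription, 3' end processing and decay, 16 were above 0, none was past the mark, and the median was 0.17. Slbp, which binds the stem-loop, stood at 86.7 and 102.9 CPM. Npat and Casp8ap2, components of histone locus bodies, stood at 47.2 and 53.5 and at 46.2 and 54.9. Cstf2 stood at 31.5 and 40.8 CPM, Cpsf2 at 82.8 and 105.4, Cstf3 at 125.3 and 152.6, and Ncbp1 at 75.3 and 87.6. Of 15 histone chaperones 13 were above 0 with a median of 0.19. Chaf1b, a subunit of the chromatin assembly factor that works at replication forks, and Asf1b, an H3 and H4 chaperone, were past the mark (2 of 15, against 1.20% of all genes), at 13.5 and 21.5 and at 15.3 and 24.1 CPM. Nasp, an H3 and H4 and linker histone chaperone, stood at 134.7 and 199.5 CPM, Hat1 at 83.5 and 118.6, Chaf1a at 44.2 and 55.8, and Ssrp1 at 162.0 and 198.5. Slbp, Casp8ap2, Nasp and Chaf1b are also in the S phase list. The lists that called the states were higher too: 8 of 43 S phase and 9 of 54 G2/M genes were past the mark, all on the higher side (1.20% of all genes), with medians of 0.41 and 0.46.

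Leukocytes carried histone UMIs at a different balance of types. The sum was 419.5 CPM in vehicle and 390.2 in RP-6306 T-like cells, 819.7 and 791.7 in B-like cells, 775.3 and 915.2 in NK-like cells, and 540.1 and 933.9 in macrophage and monocyte-like cells. There were 4822 and 5659 T-like, 3513 and 3465 B-like, 409 and 144 NK-like, and 531 and 547 macrophage and monocyte-like cells. T-like cells were not uniform. The cluster with regulatory T as its best subset, 432 and 217 cells, stood at 1198 and 1252 CPM (log2 ratio 0.06, interval -0.06 to 0.18). It held 1711 of the 6126 vehicle and 820 of the 5799 RP-6306 histone UMIs of T-like cells. Its part in the lower RP-6306 T-like sum was not tested. H1 made up 66.8% and 63.7% of the histone UMIs of T-like cells, 73.5% and 76.5% in B-like, 80.1% and 84.2% in NK-like, and 71.7% and 65.2% in macrophage and monocyte-like cells. These shares were above those of tumour-like cells in each case.

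Hist1h1e was the leading member in every leukocyte class of both libraries. It had 148.7 and 123.3 CPM in T-like cells, 389.8 and 403.1 in B-like, 452.9 and 529.9 in NK-like, and 230.3 and 286.3 in macrophage and monocyte-like cells. The B-like and NK-like levels lay far above the 62.7 and 73.3 CPM of tumour-like cells with neither score. Hist1h1c and Hist1h1b came next, at 50.9 and 70.3 and at 57.6 and 34.3 CPM in T-like cells, and at 72.2 and 88.6 and at 85.7 and 61.6 in B-like cells. In NK-like cells Hist1h1c had 68.05 and 120.4 CPM and Hist1h1b 62.4 and 62.6. Hist1h1d had 16.7 and 13.9 CPM in T-like, 44.4 and 45.8 in B-like and 28.4 and 55.4 in NK-like cells. Hist2h2ac led the core histones in B-like cells, at 31.5 and 40.3 CPM, and in T-like cells, at 22.7 and 24.1, and it had 13.8 and 38.5 in NK-like and 17.1 and 46.4 in macrophage and monocyte-like cells. Unlike in tumour-like cells, Hist1h4d and not Hist1h4i was the leading H4 gene of T-like (10.7 and 15.6 CPM), B-like (12.9 and 13.6) and NK-like cells (16.2 and 21.7). Hist1h3c was the leading H3 gene of T-like cells, at 11.7 and 10.03 CPM, and of B-like cells, at 14.6 and 10.2. Hist1h2bc had 6.92 and 4.51 CPM in T-like cells. The leading H2b and H3 genes of NK-like cells rest on at most 11 UMIs each.

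**Figure D5:**
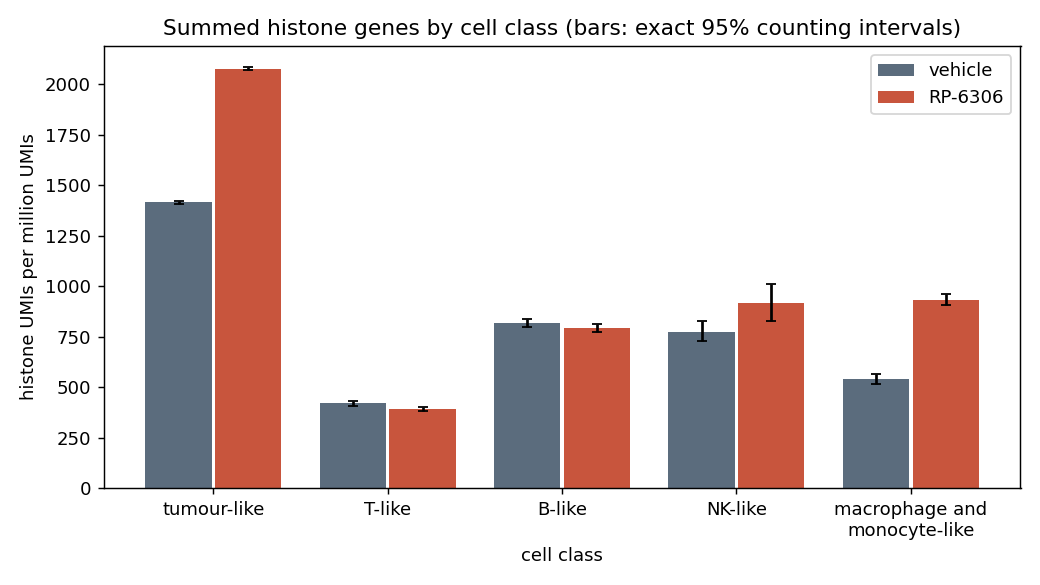
Summed histone CPM by cell class with paired bars for the vehicle and RP-6306 libraries; error bars are exact 95% counting intervals. B-like and NK-like cells stand above T-like cells in both libraries, and macrophage and monocyte-like cells stand at 540.1 and 933.9 CPM.

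Free tumour RNA in droplets can add to these values. Keratin levels (Krt7, Krt8, Krt18 and Krt19) put it at 7.49% of the UMIs of vehicle and 4.15% of RP-6306 T-like cells, 9.55% and 5.15% in B-like, 6.21% and 4.02% in NK-like, and 3.43% and 1.99% in macrophage and monocyte-like cells. With that part subtracted, 313.6 and 304.1 CPM were left in T-like cells, 684.6 and 684.8 in B-like, 687.5 and 831.6 in NK-like, and 491.6 and 892.7 in macrophage and monocyte-like cells. The part differed between members. In T-like cells it was 24.4 of 57.6 and 20.9 of 34.3 CPM for Hist1h1b and 6.76 of 13.1 and 5.14 of 10.03 for Hist1h2ae. For Hist1h1e it was 26.9 of 148.7 and 22.2 of 123.3. At 2000 UMIs per cell a member was seen in 72.4% of vehicle B-like cells (exact interval 70.4 to 74.3) and in 58.1% of vehicle tumour-like cells (56.3 to 59.8). The corresponding shares were 69.7% and 60.7% in the RP-6306 library. This left out 1351 of 3513 vehicle and 1900 of 3465 RP-6306 B-like cells with fewer UMIs. At 1000 UMIs, which left out 185 and 220 of them, the shares were 50.8% in B-like and 42.4% in tumour-like cells of the vehicle library, and 49.9% and 47.6% in the RP-6306 library. Hist1h1b was seen in 11.3% and 8.56% of B-like cells and in 19.1% and 28.2% of tumour-like cells. It was seen in 2.84% and 3.01% of tumour-like cells with neither score and in 58.1% and 59.1% of those with both. At 2000 UMIs the median depths before thinning were 2514 and 2421 UMIs in B-like cells and 26350 and 31018 in tumour-like cells.

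Hist1h1a and Hist3h2ba stood far higher in T-like and B-like cells than in tumour-like cells. Hist3h2a was also higher there in both libraries, by less. Hist1h3a and Hist4h4 were nearer to their tumour-like values. Hist4h4 had 4.73 and 6.59 CPM in T-like and 4.14 and 5.29 in B-like cells, against 3.83 and 5.27 in tumour-like cells. Hist1h3a rests on 14 and 22 UMIs in T-like and 6 and 11 in B-like cells. Hist3h2a had 1.10 and 0.47 CPM in T-like and 1.70 and 1.39 in B-like cells, against 0.19 and 0.14 in tumour-like cells. Hist1h1a had 6.51 and 6.66 CPM in T-like cells, 10.3 and 6.41 in B-like, and 8.69 and 25.4 in macrophage and monocyte-like cells, against 0.09 and 0.91 in tumour-like cells. In NK-like cells it had 12 UMIs in the vehicle and 1 in the RP-6306 library (9.72 and 2.41 CPM). Hist3h2ba, an H2b gene, had 3.42 and 3.84 CPM in T-like and 4.75 and 3.34 in B-like cells, against 0.05 and 0.03 in tumour-like cells. It had 7 UMIs in vehicle NK-like cells and 0 in the 144 RP-6306 ones, and in macrophage and monocyte-like cells 2 in each library (0.58 and 0.39 CPM). Free tumour RNA at the estimated shares would give under 0.05 CPM of Hist1h1a or Hist3h2ba in T-like and B-like cells. In B-like cells, 37 vehicle and 11 RP-6306 cells formed a cluster led by Jchain, an immunoglobulin joining chain, and had 2620 and 1009 CPM. Without this cluster B-like cells had 766.3 and 789.7 CPM, so the direction between the libraries turned.

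The macrophage and monocyte-like sum had the largest difference between libraries among the leukocyte classes, with a log2 ratio of 0.79 (interval 0.71 to 0.87). Of 24 members measured, 11 were past the mark on the higher side and 1 was lower, where 8.30% and 4.20% of all genes were. Hist1h1b had 77.1 and 190.9 CPM (log2 ratio 1.30), Hist1h3c 13.3 and 52.4 (1.90), Hist1h2ab 4.64 and 26.6 (2.29), Hist1h2ae 16.2 and 46.6 (1.47), and Hist1h1d 23.5 and 48.9 (1.03). Hist1h2bc was level at 21.4 and 21.8 CPM, and Hist1h4i was the member on the lower side, at 16.8 and 10.6, but not without 1 vehicle cell (14.3 CPM). The class-wide values rest on few cells. In the RP-6306 library 55 of 547 cells held 78.6% of them, and in the vehicle library 53 of 531 cells held 50.8%. Without these cells the sums were 307.7 and 239.8 CPM, so the RP-6306 library was then the lower one. The cells left out were picked by their own histone level, so this describes how concentrated the UMIs were and cannot check the direction. The 55 cells had 3109 CPM of the S phase list, against 1307 in the rest of the class, and the 53 vehicle cells had 1318 against 825.8. Of the S phase list, 29 of 43 genes were past the mark on the higher side in the class; the part of cycling cells in the histone difference was not tested. Tumour markers, a list that holds Spp1 and Areg beside keratins, summed to 340.7 and 420.0 CPM in the class. The keratins Krt7, Krt8, Krt18 and Krt19 alone summed to 36.2 and 21.4 CPM.

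In the other classes the libraries were nearer to each other. Of 35 members measured in T-like cells Hist2h2be was past the mark on the higher side (1.10 and 2.15 CPM, but not without 1 cell with 1 UMI) and Hist1h1b on the lower (57.6 and 34.3), against 1.90% and 7.75% of all genes. Free tumour RNA was estimated at 24.4 and 20.9 CPM of that Hist1h1b. In B-like cells none of 31 was higher and 4 were lower, against 1.77% and 6.50%. Those 4 were Hist1h2bc (14.6 and 7.38 CPM), Hist1h2ae (26.9 and 16.4), Hist1h1a (10.3 and 6.41) and Hist1h2ab (9.50 and 5.85), named after their values were seen. All but Hist1h2bc rest on a single vehicle cell for this: 1 cell held 17 of the 85 vehicle Hist1h1a UMIs, and without the top cell of each gene Hist1h1a stood at 8.29, Hist1h2ae at 25.1 and Hist1h2ab at 8.53 CPM in the vehicle library, and none of the 3 was past the mark. In NK-like cells Hist1h1c, Hist1h1d and Hist2h2ac, 3 of 7 members, were higher and none lower, against 3.97% and 1.99%, in 144 RP-6306 cells, and Hist1h1d was not past the mark without 1 of them.

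The sequence before each start was compared last, for H1 members that differed in level and in how far they moved with the cycle. Hist1h1a was nearly absent from tumour-like cells. Its few RP-6306 UMIs also lay mostly in cells with both scores, 97 against 2 in cells with neither. RefSeq promoters of GRCm38.p6, 250 bases before to 50 after each start, were matched for 62 of the 67 members and searched on both strands. CCAAT was in 53 of the 62 (85.5%), against 37.9% of all 27025 promoters, and in every H1, H2a, H2b and H3 member matched but in 3 of 12 H4 members. TATAAA was in 56.5%, against 14.2% of all. AAACACA, a motif of H1 promoters, was in 5 of 6 H1 members and 7.14% of all promoters, and in no H3 or H4 member. Hist1h1t, with 13 and 34 UMIs in tumour-like cells, was nearly absent as well, and its promoter is not shown. The 150 bases before the start are shown for the H1 gene that followed the cycle most, one that followed it little and Hist1h1a. These motifs, on either strand, are in capitals.
Hist1h1b, chr13:21780626-21780775, minus strand: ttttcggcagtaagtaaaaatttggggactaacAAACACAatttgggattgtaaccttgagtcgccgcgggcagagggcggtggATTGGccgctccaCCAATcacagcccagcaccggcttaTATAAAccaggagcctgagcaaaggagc
Hist1h1c, chr13:23738657-23738806, plus strand: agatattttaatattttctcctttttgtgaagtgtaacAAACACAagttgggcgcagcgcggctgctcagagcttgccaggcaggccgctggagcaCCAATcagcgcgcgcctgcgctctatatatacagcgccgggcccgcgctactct
Hist1h1a, chr13:23763518-23763667, plus strand: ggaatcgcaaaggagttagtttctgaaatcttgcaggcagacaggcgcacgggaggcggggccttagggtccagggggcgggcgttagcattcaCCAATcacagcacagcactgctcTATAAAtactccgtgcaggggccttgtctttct
In these windows AAACACA was found before Hist1h1b and Hist1h1c and was not found before Hist1h1a. Over the longer promoters 5 of 6 H1 members held it, so Hist1h1a and Hist1h1t, both nearly absent from tumour-like cells, cannot both lack it. Such matches describe letters only, and binding was not measured.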

How the data were processed

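The deposited values are raw counts of UMIs by gene and barcode, for 1 vehicle and 1 RP-6306 library of 135415063 and 158073632 UMIs. Cell Ranger 2.1.1 and mm10 are named, without roles, per the submitters' processing notes. The handling of strand and of reads that match several genes is not given in those notes.

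Cells needed 500 UMIs, 300 genes and at most 15% mitochondrial UMIs. Scrublet's own threshold called 1 and 0 doublets, so the top 6% of scores were removed (1026 and 952). The 16082 and 14916 cells left, with medians of 3117 and 2847 UMIs, were clustered in scanpy 1.11.5 (Python 3.11.15; 2000 variable genes without members, 30 components, 15 neighbours, Leiden resolution 1) and named from marker lists. Clusters of mixed or low markers stayed unnamed, and neutrophil-like cells (under 50 in the RP-6306 library) were not compared. UMIs were summed per class and scaled to CPM. Ratios used CPM + 1, for genes with 20 UMIs over both libraries, with exact conditional binomial 95% intervals without the 1; levels carry exact Poisson and shares Clopper-Pearson intervals. Tested on simulated data, the comparison in tumour-like cells found 98.0% of 200 genes set 2-fold apart among 17524 genes. The simulated sums held counting error only, and the changed genes were picked among those with at least 200 UMIs. It therefore does not cover genes with fewer UMIs, smaller differences, or variation between cells, mice or libraries.

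The members, lists and tests were chosen with earlier results of these data known. Named are up to 30 members with the highest CPM among those with 50 UMIs in tumour-like cells, the leading members of each type and class, up to 6 genes per other list with the largest ratios, and Slbp, Npat, Casp8ap2, H2afz, H2afx and H3f3b; genes named for another reason are those at or near 0 or otherwise singled out after their values were seen. The division into 4 states, the naming thresholds, the T-like cluster singled out and the B-like sum without its Jchain cluster were also chosen after seeing the data. So were the sums without the top 10% of cells and the calls without a member's top cell.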

Additional observations from a re-analysis of the deposited data

How the results depend on the processing

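The limits are 1 library per group, poly(A) priming, near-identical members and states called from 2000 UMIs. No paired analysis was possible because each group is 1 library. The log2 ratio of the histone sum in tumour-like cells (0.55) was 0.52 with median-ratio size factors, which move the median gene by 0.035, 0.62 at 2000 UMIs per cell and 0.63 with cells weighted equally. The median of members (0.35) was 0.68 and 0.45 under the last pair, 0.096 with a pseudocount of 10 and 0.53 with 0.1. Members past the mark, 18 higher and 1 lower, were 4 higher with the pseudocount of 10, and 28 higher and 3 lower with 0.1. By cluster alone, the sum was 0.66 in cluster 10, -0.24 in cluster 13 and 0.25 in cluster 14, and the median 0.61, -0.14 and 0.25, with 33, 0 and 2 members higher and 1, 2 and 0 lower. In cluster 13 the H1, H2a, H3 and H4 sums were -0.065, -0.21, -0.12 and -0.23, and the H2b sum (-0.22) was 0.15 in cluster 10 and 0.11 in cluster 14. By state alone, the sum was -0.19, 0.48, 0.18 and 0.23 and the median -0.11, 0.49, 0.23 and 0.19 with neither, the S, both or the G2/M score, with 0, 14, 5 and 5 members higher and 1, 1, 0 and 1 lower. With neither score H2a, H3 and H4 were -0.092, -0.24 and -0.23, and with both H2b was 0.078. The cause was not tested. The gene minimum, the 1000-UMI cell minimum, kept doublet scores, clustering with the members and leaving out the top cell kept the sum's direction. They also kept 18 or 19 members higher. Leaving out each member's own top cell took 1 of the 19 calls, that of Hist1h1a, off the higher side. The log2 ratio of S over G1 (2.53 vehicle, 3.03 RP-6306) was 2.93 and 3.09 with phase called on all UMIs, and 3.04 and 3.22 for the highest over the lowest bin of S list UMIs; G2/M over G1 (3.39) was 3.46 in the RP-6306 library on all UMIs. Cells with a histone UMI (58.1% and 60.7%) were 42.4% and 47.6% at 1000 UMIs, and 98.5% and 97.7% on all UMIs, which differ in depth.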
